A study of Rattus norvegicus with 6 samples.

Results

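Muscle miRNAs, often called myomiRs, were measured in small RNA libraries of rat nucleus pulposus, the soft centre of the intervertebral disc. The 5 sequences described here are rno-miR-1b, rno-miR-1-3p, rno-miR-206-3p, rno-miR-133a-3p and rno-miR-499-5p, out of 442 distinct mature sequences in the table. The prefix rno, for rat, is left out from here on. Members were found in the table by name, and the set was proposed with earlier results of these data known. The IDD group (intervertebral disc degeneration, 3 libraries) came from rats labelled as compressed for 4 weeks, and the Sham group (3 libraries) from rats labelled as carrying K-wires, a kind of metal pin, for 4 weeks. Strain, sex, age, the disc level sampled and whether the compressed rats also carried wires are not given in the sources used here. The study asked which miRNAs respond to mechanical load. The labels do not tie libraries to animals, so p-values cover the spread between these libraries, which may be technical.

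miRNAs are short RNAs cut from hairpin precursors that repress mRNAs, and the bases near their 5′ end, the seed, set most of the targeting. miR-1, miR-206 and miR-133 are switched on by the myogenic transcription factors during muscle differentiation. miR-206 is restricted to skeletal muscle in mouse and human, miR-1 and miR-133a are made in both heart and skeletal muscle, and miR-499 is processed from an intron of the slow-muscle myosin gene Myh7b. The nucleus pulposus itself holds no muscle, although the disc lies next to the muscles of the spine and tail.

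The 5 mature sequences are shown because seed and near-identity decide which of them can be read as one family. Capitals mark the seed, bases 2 to 8 counted from the 5′ end. Each deposited sequence was identical to the RefSeq mature sequence of that name (build GRCr8).
miR-1b: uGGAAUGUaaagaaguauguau
miR-1-3p: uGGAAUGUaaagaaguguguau
miR-206-3p: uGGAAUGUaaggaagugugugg
miR-133a-3p: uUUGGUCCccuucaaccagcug
miR-499-5p: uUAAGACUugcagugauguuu

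miR-1b, miR-1-3p and miR-206-3p share the seed GGAAUGU, and these 3 were the only sequences of the table that carried it. miR-1b and miR-1-3p differ by A17G alone, with miR-1b's base first and positions counted from the 5′ end. miR-206-3p differs from miR-1-3p by A11G, A21G and U22G. The seeds of miR-133a-3p and miR-499-5p were each found in 1 sequence of the table.

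The 3 hairpins behind the shared seed come from separate chromosomes in RefSeq, and their loops and flanks differ although the mature arm, in capitals, is nearly the same. Mir1b lies at chr3:187864685-187864769 (plus strand), Mir1 at chr18:2160327-2160413 (minus strand) and Mir206 at chr9:30590697-30590780 (plus strand), all in build GRCr8.
Mir1b: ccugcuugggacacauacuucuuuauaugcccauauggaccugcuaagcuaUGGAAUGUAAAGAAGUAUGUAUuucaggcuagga
Mir1: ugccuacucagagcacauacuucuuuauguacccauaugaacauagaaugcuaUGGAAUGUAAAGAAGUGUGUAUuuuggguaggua
Mir206: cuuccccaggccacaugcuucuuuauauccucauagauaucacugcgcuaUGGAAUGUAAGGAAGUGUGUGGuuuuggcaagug

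In that annotation Mir133a1, the gene of miR-133a-3p, lies near Mir1, and both fall within the coordinates of Mib1. Their strand was not compared with that of Mib1. Mir206 is the neighbour of Mir133b, and Mir499a lies inside Myh7b.

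The libraries held 189802 to 246422 tags in IDD and 169783 to 253807 in Sham. Of these, 147728 to 204707 in IDD and 95412 to 135609 in Sham had an established miRNA name, and the rest were tags with provisional names. The cartilage miRNAs miR-140 and miR-455, markers of the matrix-producing cells of disc and cartilage, were listed in full and held 15.3 to 15.9% of established tags in IDD and 15.4 to 18.1% in Sham. In the test described below 2 of these 4 were called higher in IDD and none lower. The 2 were miR-140-3p (log2 fold change 0.29, edgeR adjusted p = 0.0230) and miR-455-3p (1.16, adjusted p = 0.00423). Their other arms did not pass, miR-140-5p at 0.27 (adjusted p = 0.0681) and miR-455-5p at −0.04 (adjusted p = 0.916). Most tags of the 4 were miR-140-3p. Of all tested sequences 29% were called higher and 30.5% lower in that test. On the scale of established tags the summed shares of the 4 overlapped between groups. All 5 muscle miRNAs had tags in every library and passed the filter on low counts that left 131 testable sequences. Their precision differed widely, since miR-1b had 38480 to 106291 tags per library and the 3 rarest members had 9 to 51.

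The IDD libraries held more tags of all 3 miRNAs with the shared seed, and the other 2 members did not pass the test. miR-206-3p rose 3.28-fold, and miR-1b and miR-1-3p rose 1.67-fold each. miR-133a-3p was at 1.47-fold and miR-499-5p at 0.946-fold,, each fold being IDD over Sham. Thus 3 of 5 members were called, all higher in IDD, by edgeR's quasi-likelihood test at a Benjamini-Hochberg adjusted p below 0.05 over all 131 sequences. Over those 131, 29% were called higher and 30.5% lower, so that 59.5% passed in either direction. The share of members called is therefore near the background. On the CPM scale 3 of the 5 had no overlap between groups, where 66.4% of the 131 had none and 35.9% lay wholly above Sham. The median log2 fold change was 0.74 over the 5 members, 0.16 over the 108 tested sequences with an established name and 0.03 over all tested sequences. In these bulk libraries, more cells of a type and more RNA per cell cannot be told apart.

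**Figure D1:**
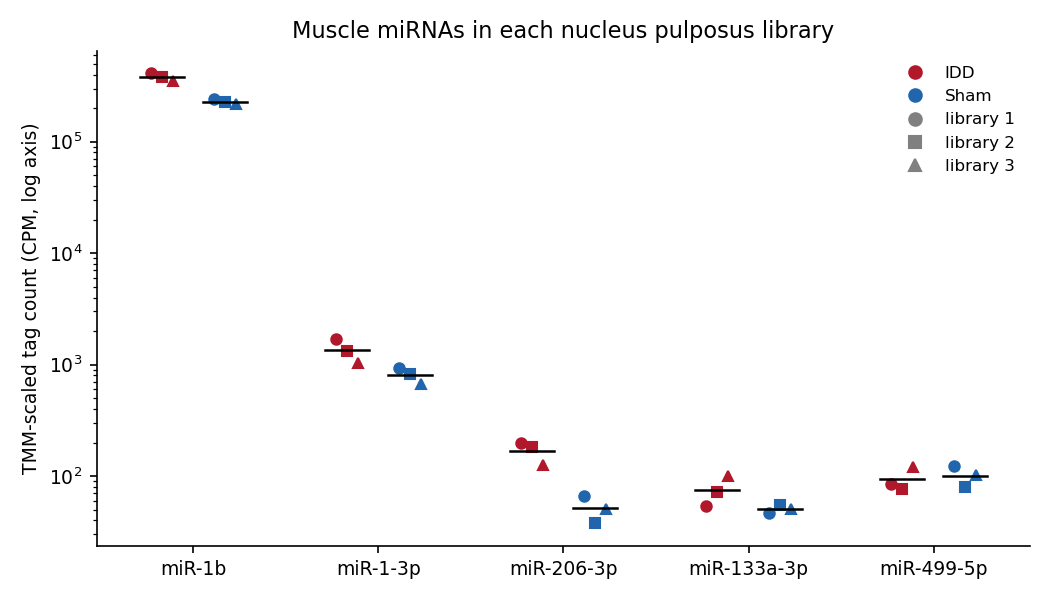
TMM-scaled tag counts (CPM, log axis) of the 5 muscle miRNAs in each library, IDD left and Sham right for each miRNA, with a point per library (marker shape gives the library number) and a line at the group mean. The 3 IDD values lie above the 3 Sham values for miR-1b, miR-1-3p and miR-206-3p and overlap them for miR-133a-3p and miR-499-5p.

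miR-1b, the seed-family member that carries nearly all of its tags, had the highest mean level of the tested sequences over the 6 libraries. It was at 411142, 383174 and 348402 CPM (tag counts relative to a library total scaled by the TMM method) in IDD 1, 2 and 3, against 240058, 229082 and 216942 CPM in Sham 1, 2 and 3. A tag with a provisional name had a higher mean than miR-1b in Sham, 397347 CPM, but not in IDD, 132375 CPM. For miR-1b every IDD library was above every Sham library. The means were 380906 ± 31431 CPM in IDD and 228694 ± 11563 CPM in Sham (SD, n = 3 each), a log2 fold change of 0.74 (SE 0.11, adjusted p = 5.19e-05 by edgeR's quasi-likelihood test). Counting error is negligible here. The scatter of replicates around their group's rate was 377.8 times that of counting noise (a chi-square over its 4 degrees of freedom), so the replicate spread and the scaling set the precision.

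miR-1-3p, made from a different hairpin with nearly the same mature arm, was at 1706, 1329 and 1042 CPM in IDD 1, 2 and 3, against 935, 832 and 665 CPM in Sham 1, 2 and 3. The groups did not overlap, although the lowest IDD value lay close above the highest Sham value. The means were 1359 ± 333 CPM in IDD and 811 ± 136 CPM in Sham (SD, n = 3 each), a log2 fold change of 0.74 (SE 0.18, adjusted p = 0.00423 by edgeR). This call was lost without Sham 2 (log2 0.72, adjusted p = 0.0615) and when libraries were scaled to established tags (log2 0.32, adjusted p = 0.0932). It had 0.359% as many tags as miR-1b, from which 1 base separates it. Its count is therefore uncertain if the authors' counting could not keep the pair apart, which was not tested.

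miR-206-3p, the skeletal-muscle member of the family, had 51, 36 and 30 tags in IDD 1, 2 and 3, against 14, 9 and 9 tags in Sham 1, 2 and 3. On the scaled measure this was 197, 184 and 125.03 CPM in IDD and 65.8, 37.8 and 50.7 CPM in Sham. The lowest IDD library was thus well above the highest Sham library. The means were 169 ± 38.5 CPM in IDD and 51.5 ± 14.0 CPM in Sham (SD, n = 3 each), a log2 fold change of 1.71 (SE 0.26, adjusted p = 7.82e-05 by edgeR). Ranked by log2 fold change it was number 3 of the 131 tested sequences. Over summed tags, 117 in IDD and 32 in Sham, the ratio of scaled counts was 3.31 (exact counting interval at 95%, 2.22 to 5.06).

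miR-133a-3p, which represses the muscle transcription factor SRF in mouse, had 14, 14 and 24 tags in IDD 1, 2 and 3, against 10, 13 and 9 tags in Sham 1, 2 and 3. This was 54.2, 71.6 and 100.03 CPM in IDD and 47.0, 54.7 and 50.7 CPM in Sham. IDD 1 fell within the Sham range and IDD 3 was the highest. The log2 fold change was 0.55 (95% interval −0.08 to 1.19, adjusted p = 0.124 by edgeR), an interval that holds both 0 and the log2 fold change of miR-1b. It passed without IDD 1 (log2 0.77, adjusted p = 0.0486), under library-total scaling (log2 0.75, adjusted p = 0.0323) and on the authors' normalized values (log2 0.65, adjusted p = 0.00838). The ratio of summed tags, 52 in IDD and 32 in Sham, was 1.47 after scaling, with a counting interval of 0.929 to 2.36.

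miR-499-5p, the sequence tied to slow muscle, had 22, 15 and 29 tags in IDD 1, 2 and 3, against 26, 19 and 18 tags in Sham 1, 2 and 3. This was 85.1, 76.7 and 121 CPM in IDD and 122.1, 79.9 and 101 CPM in Sham, and the groups overlapped fully. The log2 fold change was −0.08 (95% interval −0.64 to 0.48, adjusted p = 0.821 by edgeR), and its sign turned with library-total scaling (0.12). The ratio of summed tags, 66 in IDD and 63 in Sham, was 0.948 after scaling, with a counting interval of 0.661 to 1.36. Among these 3 rare members the replicates scattered about as much as counting noise, with values of that same ratio of 1.49 for miR-206-3p, 0.917 for miR-133a-3p and 1.16 for miR-499-5p. Their number of tags therefore limits what could be seen.

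**Figure D2:**
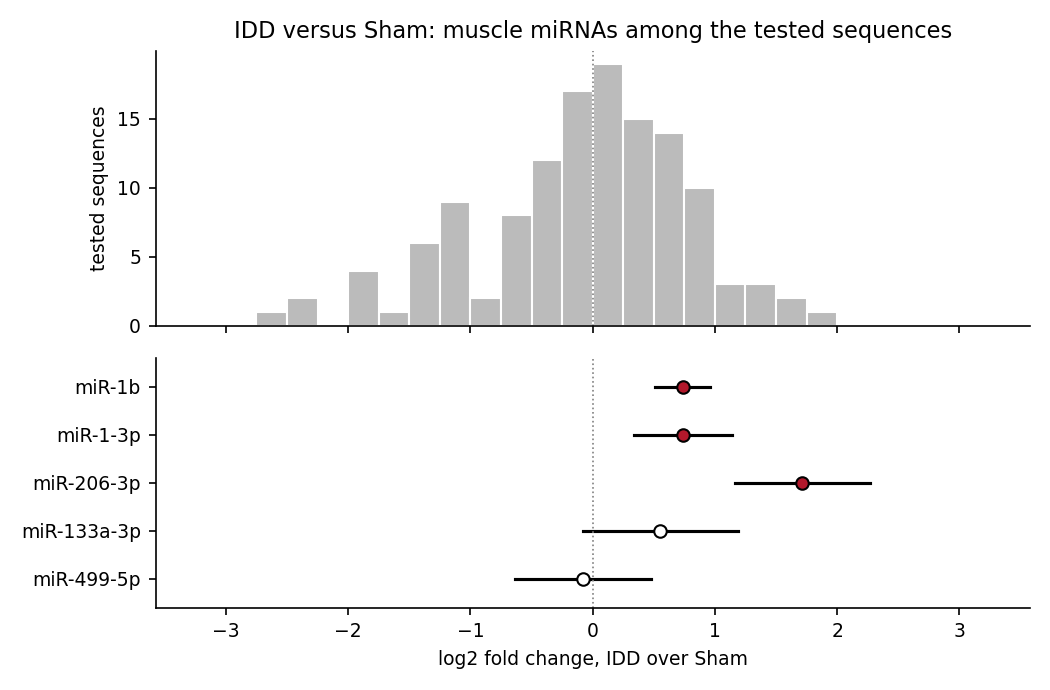
The upper panel shows the log2 fold changes, IDD over Sham, of the 131 tested sequences except 2 beyond the drawn range, and the lower panel those of the 5 muscle miRNAs with 95% intervals from edgeR's test (filled points have an adjusted p below 0.05). miR-206-3p, at 1.71, stands near the upper end of the distribution, miR-1b and miR-1-3p lie at 0.74, and the intervals of miR-133a-3p and miR-499-5p cross 0.

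The order of levels within the group of 5 differed between IDD and Sham below the first 2 places. miR-1b was highest and miR-1-3p second in all 6 libraries. In IDD the mean CPM then ran from miR-206-3p (169) over miR-499-5p (94.2 ± 23.5) to miR-133a-3p (75.3 ± 23.2). In Sham miR-499-5p (101 ± 21.1) followed miR-1-3p, before miR-206-3p (51.5) and miR-133a-3p (50.8 ± 3.84), which did not differ beyond their spread. miR-499-5p had more tags than miR-133a-3p in 6 of 6 libraries, but in IDD their ranges overlapped. In IDD 3 miR-206-3p led miR-499-5p by 30 tags to 29, so that neighbouring pair was not separated there. A mature miRNA gives 1 tag per molecule read, so these levels need no length correction, but ligation of adaptors favours some sequences and the levels are not molar amounts.

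Since provisional tags held far more of the Sham libraries, each member was also expressed as a share of the tags of established miRNAs. miR-1b held 50.2% ± 2.10 of them in IDD and 40.4% ± 0.261 in Sham (SD, n = 3 each; p = 0.1 by a two-sided exact permutation test). With 3 against 3 libraries this is the smallest p that test can give, and it was 0.25 when adjusted over the 5 members. The IDD libraries ranged from 47.8 to 51.9% and the Sham libraries from 40.2 to 40.7%. The share of miR-206-3p was 0.0222% ± 0.00432 in IDD and 0.00907% ± 0.00228 in Sham (SD, n = 3 each; exact permutation test, p = 0.1, adjusted p = 0.25). Both members were higher in every IDD library than in any Sham library. On this scale 70.2% of all tested sequences did not overlap between groups, in either direction. How many of them lay wholly above Sham was not counted on this scale.

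The other 3 members overlapped. That of miR-1-3p was 0.178% ± 0.0362 in IDD and 0.143% ± 0.0176 in Sham (exact permutation test, p = 0.3), and miR-133a-3p 0.0100% ± 0.00348 in IDD and 0.00899% ± 0.000896 in Sham (exact permutation test, p = 0.8). miR-499-5p held 0.0125% ± 0.00356 in IDD and 0.0179% ± 0.00346 in Sham (exact permutation test, p = 0.2). As a share of all tags, 4 of the 5 did not overlap between groups, against 68.7% of all tested sequences, and miR-499-5p turned to 0.0101% ± 0.00298 in IDD and 0.00946% ± 0.00167 in Sham. Because miR-1b itself fills so much of the established tags, shares were also taken over those other than miR-1b. There miR-206-3p held 0.0447% ± 0.0103 in IDD and 0.0152% ± 0.00388 in Sham and miR-1-3p 0.360% ± 0.0869 in IDD and 0.240% ± 0.0302 in Sham (SD, n = 3 each), both without overlap, while miR-133a-3p and miR-499-5p overlapped. How many of all tested sequences did not overlap was not counted on this scale. On the scales of established tags and of all tags it was 70.2 and 68.7%.

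The shared seed as a whole, GGAAUGU, was carried by 48.0 to 52.2% of established tags in IDD and 40.3 to 40.9% in Sham. miR-1b made up 99.5 to 99.7% of these seed-family tags in IDD and 99.6 to 99.7% in Sham.

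**Figure D3:**
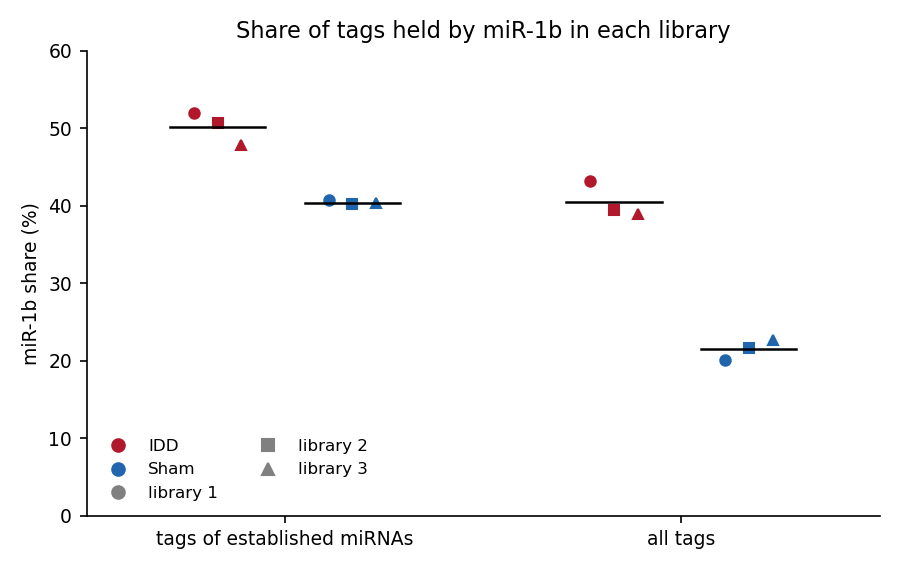
Share of tags held by miR-1b in each library (%), over the tags of established miRNAs and over all tags, IDD left and Sham right, with a line at the group mean. The groups lie apart on both scales, at 50.2 and 40.4% of established tags and at 40.5 and 21.5% of all tags.

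The scaling alone moved all members up or down together. With library totals alone 52 sequences were called higher and 29 lower, with the total of established tags 18 and 64, and with TMM 38 and 40. The median log2 fold change of all tested sequences was 0.22, −0.39 and 0.03 under these scalings. Relative to that median, miR-1b stood at 0.70, 0.71 and 0.71 and miR-206-3p at 1.69, 1.69 and 1.69. miR-1b by itself was 0.92, 0.31 and 0.74, and remained past the threshold each time. miR-206-3p was 1.91, 1.30 and 1.71 and also passed each time.

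**Figure D4:**
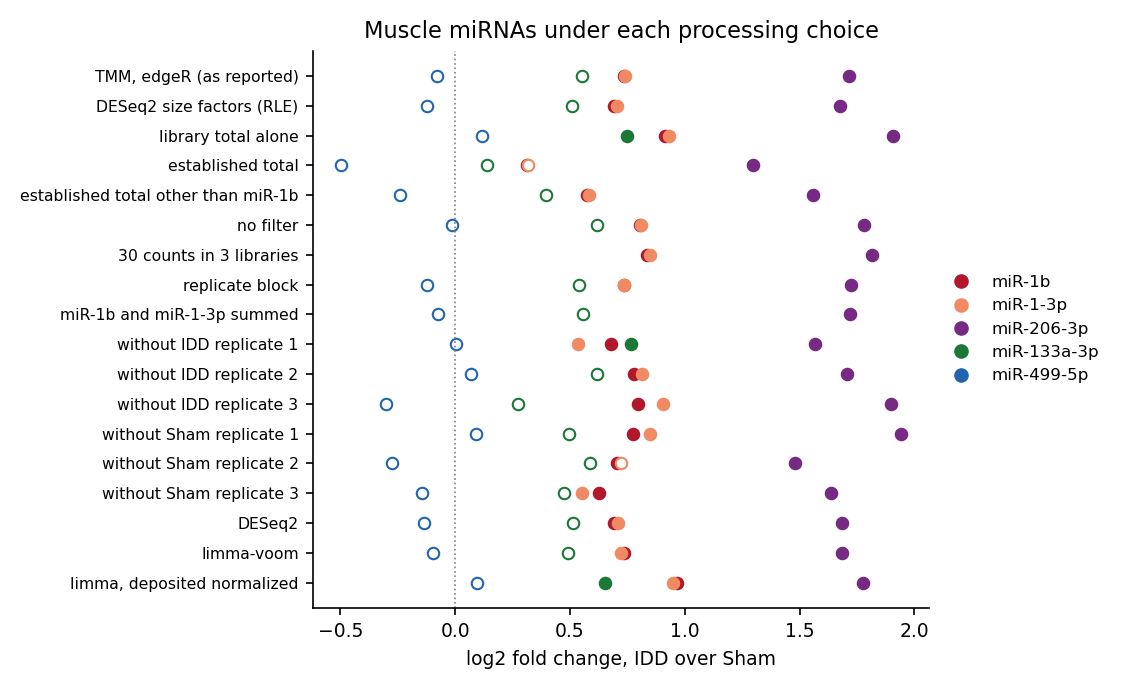
Log2 fold change, IDD over Sham, of each muscle miRNA under every processing choice, with filled points for an adjusted p below 0.05. miR-206-3p stays between 1.30 and 1.94, miR-1b between 0.31 and 0.97, and miR-499-5p lies on either side of 0. With miR-1b and miR-1-3p summed, neither has a point of its own, and miR-133a-3p and miR-499-5p have none under the filter of 30 counts.

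Ratios between members within a library do not depend on any scaling, and all 10 pairs were compared. For every 100000 tags of miR-1b, miR-206-3p had 48.0, 48.0 and 35.9 tags in IDD 1, 2 and 3, against 27.4, 16.5 and 23.4 in Sham 1, 2 and 3. The IDD libraries were all higher. The log2 ratio was 0.99 higher in IDD (1.98-fold, exact permutation test over libraries, two-sided, p = 0.1, adjusted p = 0.25 over the 10 pairs), with a 95% counting interval of 1.34 to 3.04 on the ratio of summed tags. The exact permutation test cannot give a p below 0.1 with 3 against 3 libraries, so no pair could pass it, and no other test of the ratios was made.

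miR-1-3p stood in the same ratio to miR-1b in both groups, within their spread. For every 100000 tags of miR-1b it had 415, 347 and 299 tags in IDD 1, 2 and 3, against 389, 363 and 307 in Sham 1, 2 and 3. The groups overlapped, with a mean difference of the log2 ratio of −0.0040 (exact permutation test, p = 1.0). The counting interval on the fold of this ratio was 0.901 to 1.12, and it leaves out replicate spread. Replicates of miR-1-3p scattered 12.3 times as much as counting noise, so that interval is too narrow for the difference between groups. With each library left out the log2 difference ranged from −0.13 to 0.11.

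miR-499-5p was lower in IDD relative to miR-1b. It had 20.7, 20.01 and 34.7 tags for every 100000 of miR-1b in IDD 1, 2 and 3, against 50.9, 34.9 and 46.8 in Sham 1, 2 and 3. The groups met closely at IDD 3 and Sham 2 but did not overlap. The log2 ratio was 0.84 lower in IDD (difference −0.84, exact permutation test, p = 0.1, adjusted p = 0.25), with a counting interval of 0.397 to 0.818 on the fold. The ratio of miR-499-5p to miR-206-3p had the widest gap of the 10 pairs. It was 0.431, 0.417 and 0.967 in IDD 1, 2 and 3, against 1.86, 2.11 and 2.00 in Sham 1, 2 and 3, a log2 difference of −1.83 (exact permutation test, p = 0.1, adjusted p = 0.25, counting interval 0.164 to 0.498).

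miR-133a-3p did not separate the groups against any other member. For every 100000 tags of miR-1b it had 13.2, 18.7 and 28.7 tags in IDD 1, 2 and 3, against 19.6, 23.9 and 23.4 in Sham 1, 2 and 3. The Sham values lay inside the IDD range (log2 difference −0.21, exact permutation test, p = 0.6, counting interval 0.558 to 1.42). Against miR-206-3p it was at 0.275, 0.389 and 0.800 in IDD and at 0.714, 1.44 and 1.00 in Sham, where IDD 3 overlapped Sham (exact permutation test, p = 0.2). In all, 4 of the 10 pairs did not overlap between groups, each of them with miR-206-3p or miR-499-5p as a member. Pairs that share a member are not independent. Non-overlap was not counted over pairs of all tested sequences, so 4 of 10 has no background to be read against.

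**Figure D5:**
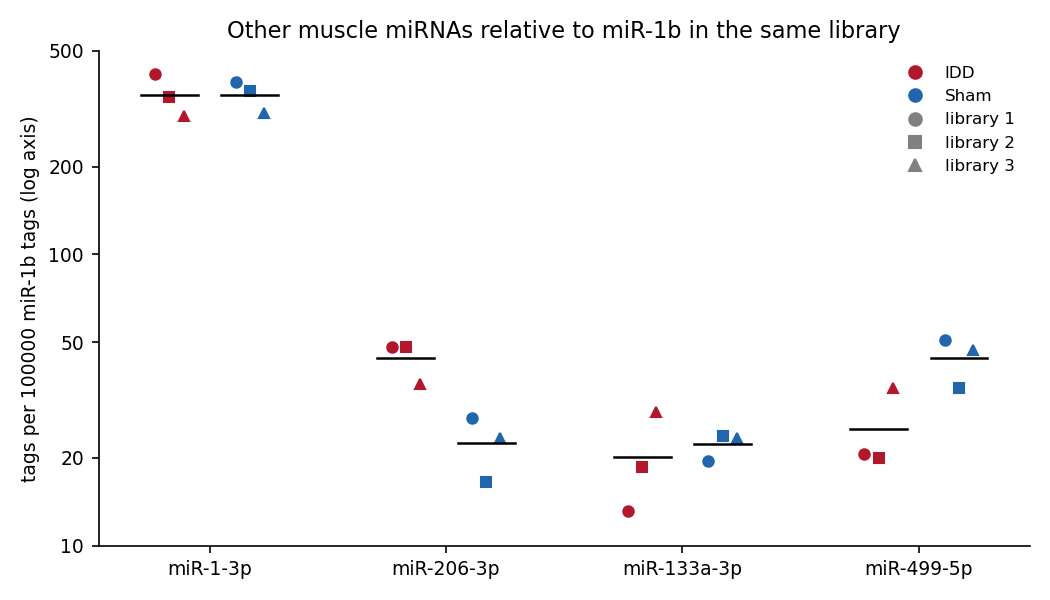
Tags of the other 4 muscle miRNAs for every 100000 tags of miR-1b in the same library (log axis), IDD left and Sham right, with a line at the group mean. The IDD points lie above the Sham points for miR-206-3p, below them for miR-499-5p, where 34.7 in IDD 3 and 34.9 in Sham 2 nearly meet, and among them for miR-1-3p and miR-133a-3p.

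Other muscle sequences were scarce. Of 11 further arms and relatives fixed as a list, 1 was listed in the table analysed here. This was miR-133a-5p, the other arm of the miR-133a hairpin, with 3, 3 and 3 tags in IDD and 4, 4 and 4 tags in Sham, too few to test (ratio of summed tags 0.679 after scaling, counting interval 0.253 to 1.76). No tag was listed for miR-208a and miR-208b, which lie in myosin genes in mouse. miR-133b-3p, the RefSeq neighbour of miR-206-3p, was likewise not listed. It differs from miR-133a-3p by G22A, miR-133a's base first.

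The pathway was followed through 20 miRNAs with reported roles in muscle differentiation or metabolism. Of these 18 were listed and 11 tested, with 5 higher in IDD, 2 lower and 4 that did not pass, so that 7 of 11 were called where 59.5% of all tested sequences were. The median log2 fold change was 0.25 over the 11, 0.16 over the 108 tested sequences with an established name and 0.03 over all tested sequences. miR-29a-3p, known to restrain collagen mRNAs, had a log2 fold change of 1.17 (SE 0.12, adjusted p = 7.47e-06 by edgeR) and rose to 1366 ± 85.4 CPM in IDD against 602 ± 72.5 CPM in Sham (SD, n = 3 each). miR-26a-5p, which favours muscle differentiation by repressing Ezh2 in mouse, had a log2 fold change of 0.70 (SE 0.11, adjusted p = 0.0001), and miR-24-3p, which slows cell cycling, one of 0.50 (SE 0.12, adjusted p = 0.00208). miR-322-5p, a relative of miR-16 that promotes cell cycle exit in mouse myoblasts, fell by 1.04 on the log2 scale (SE 0.17), to 90.9 ± 1.68 CPM in IDD against 186 ± 20.2 CPM in Sham. The other 3 called members were miR-22-3p and miR-23a-3p, higher, and miR-486, lower.

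Of the markers of other cell types, edgeR's test called miR-342-3p of the leukocyte list higher in IDD (log2 fold change 1.34, adjusted p = 0.000781). It called miR-486 of the red blood cell list lower (−0.39, adjusted p = 0.00650), a sequence also on the list of muscle roles, and miR-200a-3p of the epithelial list lower (adjusted p = 0.0214). Of all tested sequences 29% were called higher and 30.5% lower in that test. The tested smooth-muscle (miR-143-3p, adjusted p = 0.112), neural (miR-128-3p, adjusted p = 0.101) and liver (miR-122-5p, adjusted p = 0.741) markers did not pass, and no endothelial marker had enough counts to test. The sums that follow are unscaled tags. The smooth-muscle list of 2 names summed to 18 to 22 tags in IDD and 19 to 33 in Sham, with miR-145-5p listed in 1 Sham library alone. The red blood cell list, with 2 of 3 names listed and miR-144-3p not, summed to 136 to 186 tags in IDD and 168 to 219 in Sham. Nearly all of these were miR-486. The other, miR-451-5p, did not go the same way, with 5, 0 and 4 tags in IDD 1, 2 and 3 against 0, 3 and 0 in Sham 1, 2 and 3. The leukocyte list, with 2 of 5 names listed and neither miR-142-3p nor miR-223-3p among them, summed to 16 to 26 tags in IDD and 8 to 9 in Sham. The epithelial list, with miR-200a-3p alone listed of 6 names, had 0 tags listed in IDD and 27 to 64 in Sham. The neural list, 2 of 3 names and no miR-124-3p, summed to 37 to 55 tags in IDD and 32 to 35 in Sham, and the endothelial list to 5 to 7 in IDD and 7 to 10 in Sham. The liver miRNA miR-122-5p was at 7750 ± 110 CPM in IDD and 7991 ± 245 CPM in Sham (SD, n = 3 each; log2 fold change −0.04), although as a share of established tags it held 0.967 to 1.06% in IDD and 1.35 to 1.53% in Sham. The part of these cell types in the muscle miRNA levels was not tested.

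The sequences with the most similar profiles were found by the root mean square difference of centred log2(CPM + 1) over the 6 libraries. Only the 108 tested sequences with an established name were searched, not those with provisional names. Nearest to miR-1b were let-7g-5p (difference 0.068) and miR-103-3p (0.088), and nearest to miR-1-3p were miR-195-5p (0.105) and miR-1b itself (0.170). The profile of miR-206-3p had no neighbour as close, the nearest being miR-7a-5p (0.302) and miR-340-5p (0.377). For miR-133a-3p these were miR-26a-5p (0.217) and miR-30b-5p (0.234), and for miR-499-5p let-7d-3p (0.133) and miR-106b-5p (0.162). None of the nearest sequences of miR-206-3p, miR-133a-3p or miR-499-5p was another of the 5.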

How the data were processed

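Small RNA libraries of miRNA size were prepared from nucleus pulposus total RNA, per the labels' protocols, and groups were taken from the sample titles. Per the file headers, the main deposited table holds a raw count of tags for each mature sequence. The tools named in the submitters' processing notes are Novoalign 3.02.12 and cutadapt 1.9.3, with the build Rnor_6.0, and how miRNAs were called is not stated there. Blank cells were set to 0, although the lowest listed count was 2, so a blank may stand for 1. The second deposited table holds normalized tag counts, which the authors gave as whole numbers and which are treated as a score and used only as an alternative.

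The 491 rows were reduced to 442 distinct sequences. A filter on low counts (filterByExpr, at least 10 counts) and TMM scaling preceded the two-sided, robust quasi-likelihood test of edgeR 4.0.16 under R 4.3.3, with Benjamini-Hochberg adjustment over 131 sequences at 0.05. CPM are counts over TMM-scaled totals. The SE and 95% intervals were derived from the test's p and degrees of freedom. Counting intervals are exact (Clopper-Pearson, or conditional for ratios of 2 rare members) at 95% and cover counting error alone, as PCR copies of a molecule are counted too. Shares and ratios were compared with exact permutation tests (SciPy 1.17.1). The fits were tested on simulated data.

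The members, lists and alternatives were chosen with earlier results of these data known. Named were the 5 members, the 2 sequences nearest to each, listed muscle relatives and up to 4 called members of the pathway list by lowest adjusted p. Others were named to complete a count. Deviations from the group mean of same-numbered IDD and Sham libraries correlated at 0.104, 0.107 and 0.197 over 131 sequences. IDD 2 with Sham 1 had 0.106, so these correlations do not establish a pairing, and no label gives one. The main tests were therefore unpaired. Same-numbered libraries were paired only in an alternative, the replicate block, which for ratios was a sign-flip test. Alternatives were other scalings and filters, DESeq2 1.42.0, limma-voom (limma 3.58.1), limma on log2 of the deposited values plus 1, a replicate block, miR-1b and miR-1-3p summed, other denominators and each library left out. Sequences and positions are RefSeq's, on build GRCr8.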

Additional observations from a re-analysis of the deposited data

How the results depend on the processing

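Of 243 values recomputed over 22 results, 218 had the same direction and the same side of the threshold, or a count within 1.5 times. miR-1b and miR-206-3p kept direction and call under 17 alternatives (adjusted p up to 0.0137 and 0.00704), except that summing miR-1b with miR-1-3p gives a value of the pair (0.74) and none of miR-1b itself. Among them was the replicate block (log2 0.73 and 1.72), which changed no member's call. The cause of the changes below was not tested. With the total of established tags, 18 sequences were called higher and 64 lower and the log2 change of miR-1-3p was 0.32, below the threshold. Without a filter 117 were higher and 168 lower, on the deposited normalized values 60 were higher, and with at least 30 counts in 3 libraries, where fewer sequences were tested, 26 were lower. With each library left out, 24 to 36 were higher and 34 to 42 lower, the lowest count of rises being without Sham 2. miR-1-3p then ranged from 0.54 to 0.91, miR-133a-3p from 0.27 to 0.77 and miR-499-5p from −0.30 to 0.089. miR-133a-3p passed with library totals (0.75) and on the deposited values (0.65), where miR-499-5p turned to 0.12 and 0.10. The IDD minus Sham share of miR-499-5p turned to 0.00065 percentage points over all tags, and that of miR-133a-3p ranged from −0.00084 to 0.0026 with each library left out. Likewise the log2 ratio of miR-1-3p to miR-1b ranged from −0.13 to 0.11, that of miR-133a-3p to miR-1b from −0.50 to 0.062 and to miR-1-3p from −0.61 to 0.19. Members with 9 to 51 tags per library are limited by depth, and no ratio or share could pass the exact permutation test with 3 against 3 libraries.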

Other observations

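miR-1-3p and miR-1b are 1 of 14 pairs of established miRNAs in the table that have equal length and differ by a single base. The rarer sequence of this pair had 0.359% as many tags as the commoner over all libraries, the lowest of the 14. Only 1 other pair was below 1%, miR-29c-3p with miR-29a-3p at 0.677%, which rests on 9 tags. The share of miR-1-3p relative to miR-1b was 0.299 to 0.415% in IDD and 0.307 to 0.389% in Sham. For miR-23b-3p relative to miR-23a-3p the shares were 1.498 to 1.85% in IDD and 2.92 to 3.30% in Sham, and for let-7a-5p relative to let-7f-5p 10.9 to 11.9% in IDD and 13.8 to 14.8% in Sham. These pairs were looked at after their values were seen, and no test was made.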
